A study of Mus musculus with 6 samples.

Results

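The genes described here encode 49 nuclear-encoded subunits of the 5 complexes of oxidative phosphorylation, chosen by name and by the complex each belongs to: 25 of complex I, 4 of complex II, 6 of complex III, 8 of complex IV and 6 of complex V. Their RNA was measured in whole lungs at embryonic day 18.5 on Illumina mouse BeadChips, 1 lung per array, from 3 R26Foxf1; Tie2-cre embryos and from 3 control embryos with R26-LSL-Foxf1 alone. All 6 embryos carried R26-LSL-Foxf1, a Foxf1 cDNA in the ROSA26 locus behind a lox-STOP-lox cassette. The R26Foxf1; Tie2-cre embryos also carried the Tie2-cre transgene, which removes the STOP cassette in endothelial and hematopoietic cells, and the control embryos carried no Cre. The arrays read the RNA of all lung cells together, so that a different number of cells of a type and a different amount of RNA per cell cannot be told apart. Of the 49 genes, 46 had a probe that named them alone, and 43 were tested because a probe was detected (detection p under 0.01) in 3 or more of the 6 lungs, among 11080 tested genes. The probes that represent these 43 genes were detected in all 6 lungs. No probe named Uqcrb, Cox7c or Cox8a alone, and the probes of Ndufs1, Sdha and Uqcrfs1 were not detected at that limit on any array, so that these 6 genes have no tested value.

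Oxidative phosphorylation takes place in the inner mitochondrial membrane. Complex I takes electrons from NADH and complex II takes them from succinate, complex III passes them on to cytochrome c, and complex IV hands them to oxygen. Complexes I, III and IV pump protons across the membrane, and complex V, the ATP synthase, uses the returning protons to make ATP. All complexes but complex II combine subunits from nuclear genes with subunits from the mitochondrial genome, and none of 13 mitochondrially encoded genes had a probe that was named to it here. Around birth the lung turns from a fluid-filled organ into one that exchanges gas, and its surfactant-producing epithelium is rich in mitochondria.

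Each value below is a log2 signal after background correction and quantile normalization, and each log2 fold change is R26Foxf1; Tie2-cre minus control, so that a negative one means lower in the R26Foxf1; Tie2-cre lungs. A gene was called where it differed by 1.2-fold or more at a p from limma that stayed under 0.05 after Benjamini-Hochberg adjustment, and its brightest tested probe stood for the gene. Foxf1 itself read 10.93, 10.77 and 10.83 in the R26Foxf1; Tie2-cre lungs, against 10.68, 10.15 and 10.77 in the control lungs. The log2 fold change was 0.31 (SE 0.17, adjusted p = 0.285), and 1 R26Foxf1; Tie2-cre lung and 1 control lung were level at 2 decimals. Whether the probe reads the knocked-in cDNA was not examined. Of the lung's own cells, 9 epithelial and 9 endothelial markers were tested and none was called. At an unadjusted p under 0.05, 2 of the 9 endothelial markers were higher (22.2%) and 0 lower, beside 13% and 9.03% of all tested genes. For the epithelial markers it was 0 in both directions. Over all 10 epithelial markers, with the undetected Epcam, mean signals were 11.99 to 12.32 in the R26Foxf1; Tie2-cre lungs, against 12.09 to 12.32 in the control lungs. Over all 10 endothelial markers, with the undetected Kdr, they were 10.62 to 10.77 in the R26Foxf1; Tie2-cre lungs and 10.47 to 10.64 in the control lungs.

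The transcripts of oxidative phosphorylation were nearly level between the groups. Of the 43 tested subunits, 0 were called higher and 1 was called lower, Atp5pb, which encodes subunit b of the peripheral stalk of the ATP synthase. This is 2.33% of the subunits, beside 1.44% of all tested genes that were called lower and 1.54% that were called higher. The median log2 fold change over the subunits was −0.04, with a range of −0.60 to 0.40, and the median over all tested genes was 0.05. With array weights the median over the subunits was 0.0037, and it stayed negative under median scaling (−0.029) and cyclic loess (−0.070). Estimates lay within 1.2-fold of no change for 39 of 43 subunits.

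The promoters of the 3 subunits with the lowest log2 fold change, Atp5pb, Ndufs4 and Sdhb, are shown because these genes carry the lower estimates described below. Each line gives the 150 bases before the transcription start, 5′ to 3′ on the gene's strand, from RefSeq (GRCm38.p6). The positions are chr3:105959264-105959413 on the minus strand for Atp5pb, chr13:114388095-114388244 on the minus strand for Ndufs4, and chr4:140961121-140961270 on the plus strand for Sdhb. Capitals mark a match to GCGCANGC, the core of the motif bound by NRF1, a transcription factor known for binding many promoters of respiratory chain genes.
Atp5pb: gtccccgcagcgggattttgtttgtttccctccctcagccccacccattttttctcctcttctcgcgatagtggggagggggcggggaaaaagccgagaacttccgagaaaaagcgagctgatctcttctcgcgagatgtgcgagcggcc
Ndufs4: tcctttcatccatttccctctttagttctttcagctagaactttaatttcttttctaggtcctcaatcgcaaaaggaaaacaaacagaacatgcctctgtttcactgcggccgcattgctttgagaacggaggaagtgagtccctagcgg
Sdhb: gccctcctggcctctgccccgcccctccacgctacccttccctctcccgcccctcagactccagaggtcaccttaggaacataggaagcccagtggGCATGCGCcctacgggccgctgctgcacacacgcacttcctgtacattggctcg
Of the 49 genes, 38 had a promoter in the table, with 42 start sites in all. On either strand of the 250 bases before the start, GCGCANGC was found in 9 of 42 promoters (21.4%), against 8.3% of 32851 promoters of all genes, and CCGGAAG, a motif bound by ETS factors such as GABPA, was found in 4 of 42 (9.52%), against 6.91%. Of the 3 promoters shown, that of Sdhb alone held either motif, with the NRF1 core beginning 54 bases before the start. The NRF1 core also stood before Sdhd, Ndufa5, Ndufa6, Ndufa8, Cox6a1, Atp5c1 and Sdha, and of these the 6 that were tested had log2 fold changes between −0.13 and 0.13. A match describes the letters only, and binding was not measured here.

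**Figure D1:**
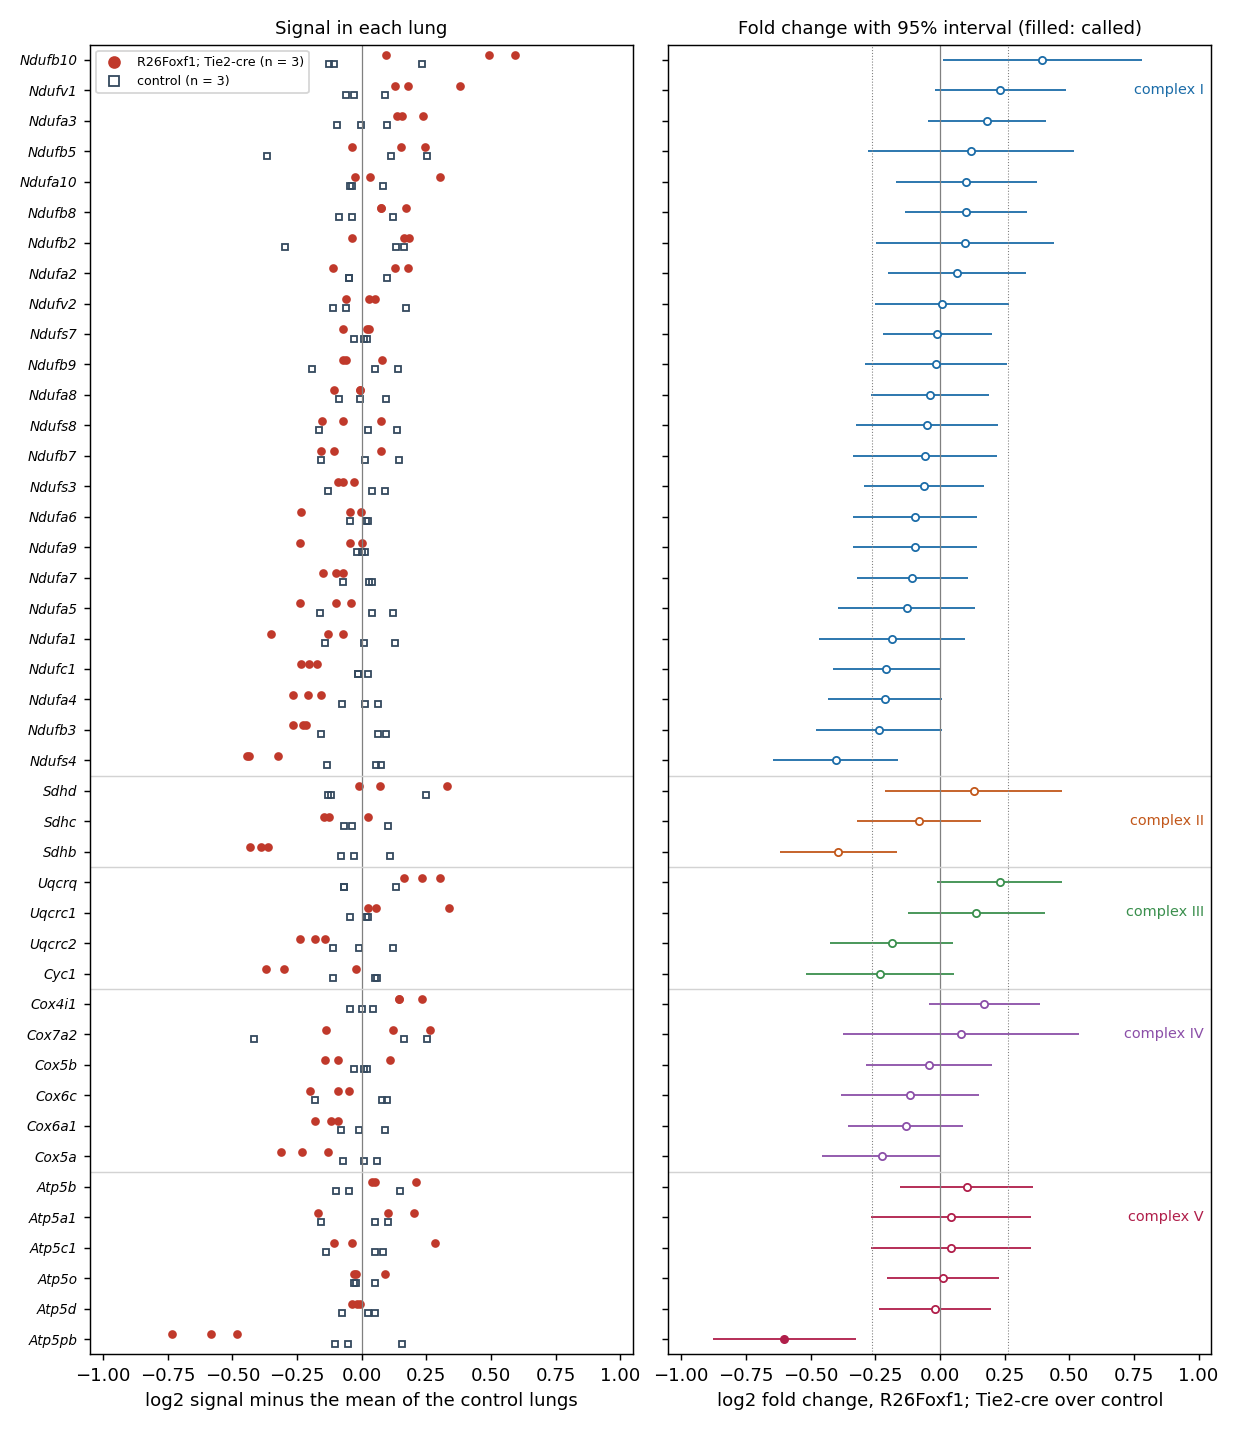
Log2 fold change (R26Foxf1; Tie2-cre minus control) of the 43 tested subunits by complex, 1 point per gene at its brightest probe, with its 95% confidence interval. Points cluster around 0 in each complex, and Atp5pb of complex V, at −0.60, is the only called gene.

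At an unadjusted p under 0.05, 4 subunits were lower, Ndufc1, Ndufs4, Sdhb and Atp5pb, and 1 was higher, Ndufb10. These are 9.3% and 2.33% of the subunits, beside 9.03% of all tested genes at that limit in the lower direction and 13% in the higher direction. Groups did not overlap for 9 subunits that were lower (20.9%) and 5 that were higher (11.6%), beside 10.9% and 18.5% of all tested genes. In sign, 25 subunits (58.1%) had a negative estimate, beside 42.3% of all tested genes, and the number was 27 under median scaling, 29 under cyclic loess and 20 with array weights. The share of lower subunits was thus near the background by p and above it by the overlap of the lungs, and the share of higher subunits was below the background by both. These shares were not tested.

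The intervals were narrow. The median SE of a log2 fold change was 0.105 over the subunits and 0.123 over all tested genes. For 39 of 43 subunits (90.7%) the whole 95% confidence interval lay within 1.5-fold of no change in either direction, beside 69.2% of all tested genes. The 4 exceptions were Atp5pb, Ndufs4, Sdhb and Ndufb10. At a mean log2 signal of 12 or more, 91.9% of all tested genes had such an interval, with a median SE of 0.105. For the subunits at that signal the values were 96.4% and 0.103. Of the subunits, 28 had a mean log2 signal of 12 or more, where 0 of 810 tested genes (0%) were called by limma and 110 of 810 passed an unadjusted p under 0.05. Among these 28, 2 passed an unadjusted p under 0.05, Ndufs4 and Ndufc1, both lower.

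**Figure D2:**
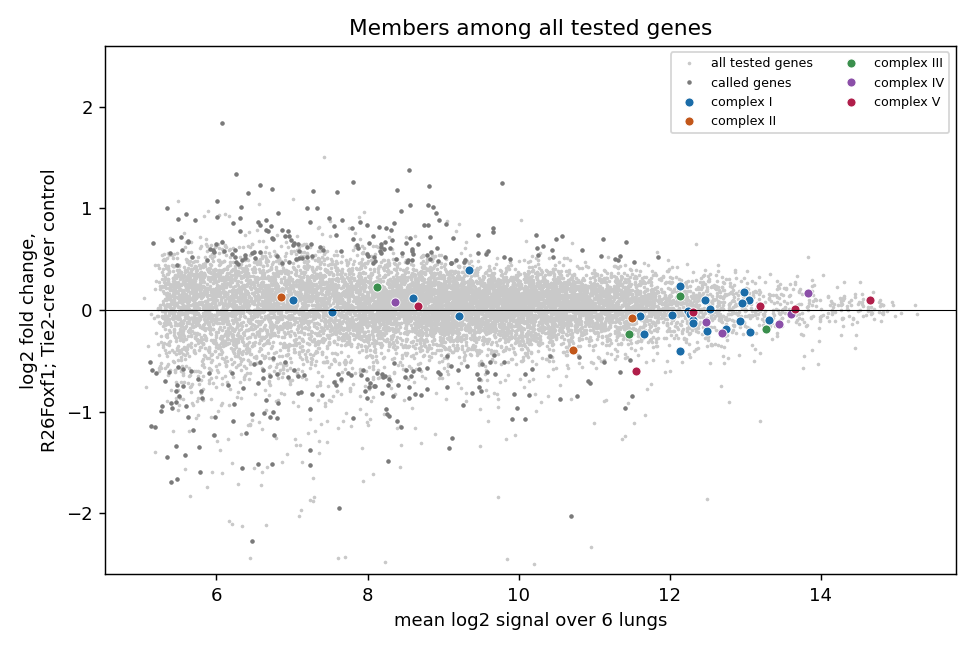
Log2 fold change (R26Foxf1; Tie2-cre minus control) against mean log2 signal for the 11080 tested genes, with the 43 subunits marked, and 8 genes beyond ±2.6 not drawn. The subunits lie mostly at high signal and close to 0.

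Each lung's level over the subunits was read as the median deviation from the mean of each gene over the 6 lungs. It was −0.02, −0.05 and 0.02 in the R26Foxf1; Tie2-cre lungs, against −0.05, 0.08 and 0.05 in the control lungs. Control replicate 1 lay among the R26Foxf1; Tie2-cre lungs, and the groups overlapped. The same deviation over all tested genes was 0.03, 0.01 and 0.02 in the R26Foxf1; Tie2-cre lungs, against −0.03, −0.02 and −0.03 in the control lungs.

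By complex, only complex II had medians that did not overlap between the groups, at −0.11, −0.08 and −0.08 in the R26Foxf1; Tie2-cre lungs, against 0.01, 0.12 and 0.14 in the control lungs, over 3 genes. Complex I had −0.04, −0.06 and 0.02 in the R26Foxf1; Tie2-cre lungs, against −0.09, 0.08 and 0.04 in the control lungs. Complex III had −0.08, −0.04 and 0.14 in the R26Foxf1; Tie2-cre lungs, against −0.01, 0.01 and 0.07 in the control lungs. In both complexes the lungs of the groups were mixed. Complex IV had −0.01, −0.04 and −0.13 in the R26Foxf1; Tie2-cre lungs, against −0.05, 0.12 and 0.10 in the control lungs, and complex V had −0.02, −0.02 and 0.04 in the R26Foxf1; Tie2-cre lungs, against −0.05, 0.05 and 0.03 in the control lungs. Control replicate 1 had the lowest value of the controls in each of the 5 complexes.

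Complex V held the single call. Atp5pb read 11.12, 11.27 and 11.37 in the R26Foxf1; Tie2-cre lungs, against 11.80, 11.75 and 12.01 in the control lungs. Each R26Foxf1; Tie2-cre lung was below each control lung. The means were 11.25 ± 0.13 in the R26Foxf1; Tie2-cre lungs and 11.86 ± 0.14 in the control lungs (SD, n = 3 each), a log2 fold change of −0.60 (SE 0.12, 95% interval −0.88 to −0.33, adjusted p = 0.0433), or 1.52-fold lower in the R26Foxf1; Tie2-cre lungs. A further probe of Atp5pb was called as well, with 10.93, 10.94 and 11.03 in the R26Foxf1; Tie2-cre lungs, against 11.54, 11.43 and 11.61 in the control lungs (log2 fold change −0.56, SE 0.10, adjusted p = 0.0386). The 2 remaining tested probes of the gene were dim and did not fall. One had 6.37, 6.31 and 6.43 in the R26Foxf1; Tie2-cre lungs, against 5.80, 6.31 and 5.85 in the control lungs (0.38, SE 0.15, adjusted p = 0.158), and the other had 5.43, 5.81 and 5.66 in the R26Foxf1; Tie2-cre lungs, against 5.33, 5.87 and 5.65 in the control lungs (0.01, adjusted p = 0.969). Where these probes lie in the transcript was not examined. With 1 lung left out at a time, the log2 fold change stayed between −0.66 and −0.52, and the call was kept only without control replicate 2 (adjusted p = 0.0363) and lost without each of the other 5 lungs (adjusted p = 0.0684 to 0.132). Without each of those 5 lungs in turn, 0 to 388 probes were called on the whole array, against 908 with all 6 lungs. Without control replicate 2 the number was 1669. Over the mean of its 4 probes Atp5pb had an estimate of −0.19 (adjusted p = 0.280).

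The other subunits of complex V had estimates near 0. Atp5b, which encodes the catalytic beta subunit, had 14.66, 14.65 and 14.82 in the R26Foxf1; Tie2-cre lungs, against 14.56, 14.76 and 14.51 in the control lungs (log2 fold change 0.10, SE 0.11, adjusted p = 0.586). Atp5o, which encodes the protein that joins the peripheral stalk to the catalytic head, had 13.64, 13.63 and 13.75 in the R26Foxf1; Tie2-cre lungs, against 13.63, 13.71 and 13.64 in the control lungs (0.01, SE 0.09, adjusted p = 0.949). Both estimates are small enough that another scaling of the arrays turned their sign, to −0.08 and −0.05 under median scaling. Atp5a1, Atp5c1 and Atp5d, which encode the alpha, gamma and delta subunits, had log2 fold changes of 0.04, 0.04 and −0.02. The median over the 6 genes was 0.03, with the groups overlapping for all of them but Atp5pb.

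Complex I, the largest of the complexes, had 24 tested subunits with a median log2 fold change of −0.04 (0.0028 with array weights), 15 of them negative and none called. Ndufs4, an accessory subunit near the NADH-oxidizing arm whose loss causes Leigh syndrome in humans, had the lowest estimate. It had 11.90, 12.01 and 11.89 in the R26Foxf1; Tie2-cre lungs, against 12.20, 12.39 and 12.41 in the control lungs (−0.40, SE 0.10, adjusted p = 0.0676). The groups did not overlap at this probe, but they overlapped at each of the 3 other tested probes of Ndufs4, which had log2 fold changes of −0.27 (adjusted p = 0.243), −0.06 and 0.14. Ndufb10, a subunit of the membrane arm, had the highest estimate, with 9.24, 9.64 and 9.74 in the R26Foxf1; Tie2-cre lungs, against 9.04, 9.38 and 9.02 in the control lungs (0.40, SE 0.17, adjusted p = 0.180). One control lung lay above the lowest R26Foxf1; Tie2-cre lung. The second probe of Ndufb10 had 7.56, 8.12 and 7.76 in the R26Foxf1; Tie2-cre lungs, against 7.27, 7.52 and 7.60 in the control lungs (0.35, SE 0.16, adjusted p = 0.226).

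In 5 further genes of the complex I list the groups did not overlap, and none of them passed the test. With Ndufs4, 4 of 24 tested subunits were lower without overlap and 2 were higher, beside 10.9% and 18.5% of all tested genes. Ndufc1 and Ndufb3, small accessory subunits of the membrane arm, and Ndufa4, first described in complex I and since assigned to complex IV, were each below all control lungs. Ndufc1 had 12.43, 12.37 and 12.40 in the R26Foxf1; Tie2-cre lungs, against 12.59, 12.63 and 12.59 in the control lungs (−0.21, adjusted p = 0.190). Ndufb3 had 11.51, 11.55 and 11.56 in the R26Foxf1; Tie2-cre lungs, against 11.62, 11.87 and 11.84 in the control lungs (−0.24, adjusted p = 0.205), and Ndufa4 had 13.02, 12.97 and 12.91 in the R26Foxf1; Tie2-cre lungs, against 13.10, 13.19 and 13.24 in the control lungs (−0.21, adjusted p = 0.207). In the other direction stood Ndufv1, which binds the flavin that accepts electrons from NADH, and Ndufa3, an accessory subunit. Ndufv1 had 12.15, 12.20 and 12.40 in the R26Foxf1; Tie2-cre lungs, against 11.96, 11.99 and 12.11 in the control lungs (0.23, adjusted p = 0.219), and Ndufa3 had 13.03, 13.05 and 13.13 in the R26Foxf1; Tie2-cre lungs, against 12.80, 12.99 and 12.89 in the control lungs (0.18, adjusted p = 0.283). These differences were under 1.2-fold in size. The core subunits Ndufs3, Ndufs7, Ndufs8 and Ndufv2 lay between −0.06 and 0.01. The remaining subunits of complex I lay between −0.18 (Ndufa1, adjusted p = 0.369) and 0.12 (Ndufb5, adjusted p = 0.695).

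Complex II, succinate dehydrogenase, is also an enzyme of the citric acid cycle and has 4 subunits. Sdhb, its iron-sulfur subunit, had 10.49, 10.53 and 10.56 in the R26Foxf1; Tie2-cre lungs, against 11.03, 10.84 and 10.89 in the control lungs. The groups did not overlap, and the log2 fold change was −0.39 (SE 0.10, 95% interval −0.62 to −0.17, adjusted p = 0.0620), just outside the threshold. A second probe of Sdhb had 10.17, 10.30 and 10.25 in the R26Foxf1; Tie2-cre lungs, against 10.41, 10.38 and 10.59 in the control lungs, again without overlap (−0.22, SE 0.10, adjusted p = 0.227). The 2 subunits that anchor the enzyme in the membrane overlapped between the groups. Sdhd had 7.12, 6.86 and 6.78 in the R26Foxf1; Tie2-cre lungs, against 6.66, 7.04 and 6.67 in the control lungs (0.13, SE 0.15, adjusted p = 0.607), and Sdhc had an estimate of −0.08 (adjusted p = 0.655). The flavoprotein gene Sdha was not detected.

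Complex III, the cytochrome bc1 complex, had 4 tested genes with a median of −0.02, which was −0.075 to 0.015 with 1 lung left out. Cyc1, which encodes the heme-carrying cytochrome c1, had 11.21, 11.28 and 11.56 in the R26Foxf1; Tie2-cre lungs, against 11.47, 11.63 and 11.64 in the control lungs (−0.23, SE 0.12, adjusted p = 0.277), with 1 R26Foxf1; Tie2-cre lung within the range of the controls. Uqcrq, a small accessory subunit, had 8.17, 8.24 and 8.31 in the R26Foxf1; Tie2-cre lungs, against 8.14, 7.94 and 7.94 in the control lungs (0.23, SE 0.10, adjusted p = 0.209). The 2 core proteins of the complex lay on either side of 0. Uqcrc2 had 13.13, 13.23 and 13.19 in the R26Foxf1; Tie2-cre lungs, against 13.26, 13.36 and 13.49 in the control lungs (−0.19, adjusted p = 0.291), and Uqcrc1 had an estimate of 0.14 (adjusted p = 0.464). For Uqcrq, Uqcrc1 and Uqcrc2 the groups did not overlap, and none was called. Of the 4 tested genes, 1 was thus lower without overlap and 2 were higher, beside 10.9% and 18.5% of all tested genes. These shares were not tested.

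Complex IV, cytochrome c oxidase, had 6 tested nuclear subunits with a median of −0.08, which was −0.15 without control replicate 1 and −0.13 under cyclic loess. Cox5a, a subunit on the matrix side, had the lowest estimate, with 12.67, 12.57 and 12.49 in the R26Foxf1; Tie2-cre lungs, against 12.73, 12.81 and 12.86 in the control lungs (−0.23, SE 0.10, adjusted p = 0.199). Cox4i1, the regulatory subunit that binds adenine nucleotides, had the highest, with 13.89, 13.98 and 13.89 in the R26Foxf1; Tie2-cre lungs, against 13.75, 13.79 and 13.70 in the control lungs (0.17, SE 0.09, adjusted p = 0.281). In both genes the groups did not overlap, and the directions were opposite. Cox6a1 had 13.42, 13.39 and 13.33 in the R26Foxf1; Tie2-cre lungs, against 13.43, 13.60 and 13.50 in the control lungs (−0.13, adjusted p = 0.414), also without overlap. Cox5b, Cox6c and Cox7a2 had log2 fold changes of −0.04, −0.11 and 0.08. Of the 6 tested genes, 2 were thus lower without overlap and 1 was higher, beside 10.9% and 18.5% of all tested genes. These shares were not tested.

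Several genes were read by more than 1 probe, and these probes did not always agree. Of 60 tested probes of the subunits, 17 were not the brightest of their gene. Their median log2 fold change was −0.14, with 11 negative and 1 called lower (5.88%, beside 2.09% of all tested probes). At an unadjusted p under 0.05, 4 of the 17 were lower (23.5%) and 1 was higher (5.88%), beside 12% and 14.3% of all tested probes. These probes share their genes with the brightest ones and are not independent of them. Of the 13 genes with several tested probes, 9 had all probes in 1 direction, and Atp5pb, Atp5o, Ndufs4 and Ndufb8 did not. The dimmer probe of Atp5o had 8.51, 8.11 and 8.58 in the R26Foxf1; Tie2-cre lungs, against 8.76, 8.73 and 8.84 in the control lungs (−0.37, SE 0.14, adjusted p = 0.143), while its bright probe was level. The same was seen for Cox5b, with 11.13, 11.23 and 11.43 in the R26Foxf1; Tie2-cre lungs, against 11.49, 11.70 and 11.64 in the control lungs at the dimmer probe (−0.35, SE 0.12, adjusted p = 0.118), and for Ndufa8, with 10.73, 10.81 and 10.92 in the R26Foxf1; Tie2-cre lungs, against 10.92, 11.15 and 11.34 in the control lungs (−0.31, SE 0.13, adjusted p = 0.176). None of these 3 passed the threshold.

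**Figure D3:**
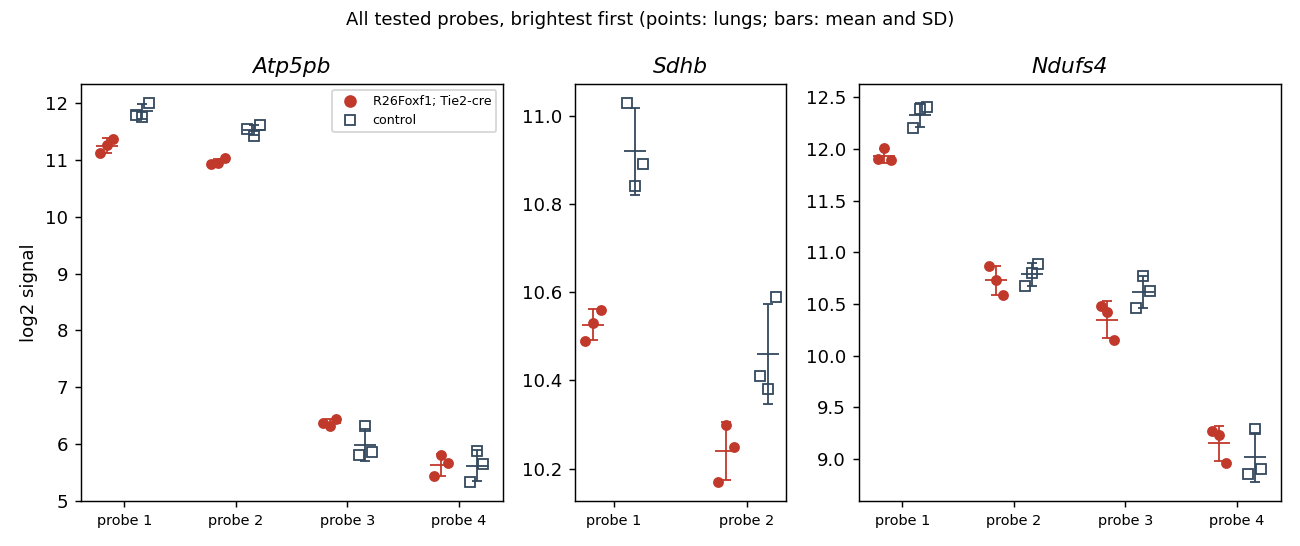
Log2 signal of each lung at every tested probe of the 3 subunits with the lowest estimates, Atp5pb, Sdhb and Ndufs4 (brightest probe first, bars at the mean and SD), with R26Foxf1; Tie2-cre lungs left of control lungs. The 2 bright Atp5pb probes separate the groups and the 2 dim ones do not show a lower signal in the R26Foxf1; Tie2-cre lungs.

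Few genes around the complexes were called, and few were called over the whole array, at 1.44% of all tested genes lower and 1.54% higher. Of 29 further nuclear genes of the complexes, cytochrome c and the ATPase inhibitor included, 26 were tested, with 0 called and a median of −0.07. At an unadjusted p under 0.05, 6 were lower (23.1%) and 0 higher (0%), beside 9.03% and 13% of all tested genes, and these shares were not tested. The lower ones were Cox7a2l, an assembly factor of supercomplexes (−0.36, adjusted p = 0.115), Ndufc2 (−0.34, adjusted p = 0.0839), Ndufb6 (−0.29), Atp5j (−0.29), Cycs, which encodes cytochrome c (−0.28), and Ndufa12 (−0.27). Of 42 assembly factors, 35 were tested, with 0 called and a median of −0.03. Surf1, needed to build complex IV, had 8.47, 8.53 and 8.46 in the R26Foxf1; Tie2-cre lungs, against 8.96, 8.80 and 8.83 in the control lungs (−0.38, SE 0.10, adjusted p = 0.0657), and Coa7, a further factor of complex IV, had 8.13, 8.69 and 8.29 in the R26Foxf1; Tie2-cre lungs, against 7.75, 7.78 and 7.92 in the control lungs (0.55, SE 0.15, adjusted p = 0.0808). For both the groups did not overlap, and the signs were opposite. Over the 35 tested assembly factors, groups did not overlap for 7 that were lower and 2 that were higher, beside 10.9% and 18.5% of all tested genes. At an unadjusted p under 0.05, 3 were lower (8.57%) and 2 higher (5.71%), beside 9.03% and 13% of all tested genes. These shares were not tested.

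Among 22 regulators of mitochondrial biogenesis, 20 were tested and 0 called, with a median of 0.08. At an unadjusted p under 0.05, 1 was lower (5%) and 1 higher (5%), beside 9.03% and 13% of all tested genes. Nrf1, whose motif is described above, had an estimate of 0.14 (adjusted p = 0.393), Ppargc1a, a coactivator that drives the program, had 0.22 (adjusted p = 0.460), and Tfam, which packages mitochondrial DNA, had −0.21 (adjusted p = 0.267). Nfe2l2, a factor of the oxidative stress response, was the lowest, with 8.43, 8.26 and 8.13 in the R26Foxf1; Tie2-cre lungs, against 9.05, 8.56 and 8.87 in the control lungs (−0.55, SE 0.15, adjusted p = 0.0775). Of the citric acid cycle and pyruvate dehydrogenase genes 14 of 16 were tested and 0 called (median 0.02). Among these 14, 1 was lower (7.14%) and 0 higher (0%) at an unadjusted p under 0.05. Of the genes of the mitochondrial ribosome, which translates the mitochondrially encoded subunits, 45 of 47 were tested (median 0.01). Of these 0 were called higher and 1 was called lower, beside 1.54% and 1.44% of all tested genes. That gene, Mrpl9, had 10.14, 10.19 and 10.23 in the R26Foxf1; Tie2-cre lungs, against 10.63, 10.67 and 10.61 in the control lungs (−0.45, SE 0.09, adjusted p = 0.0441). At an unadjusted p under 0.05, 4 of the 45 were lower (8.89%) and 0 higher (0%), beside 9.03% and 13% of all tested genes. Groups did not overlap for 10 of the 45 that were lower and 3 that were higher, beside 10.9% and 18.5% of all tested genes. These shares were not tested.

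The isoforms of complex IV that replace the common subunits in particular tissues were not called, and the muscle isoforms varied widely between lungs of the same group. Cox6a2, Cox7a1 and Cox8b are the isoforms of heart and skeletal muscle. Cox6a2 had 8.53, 12.05 and 11.88 in the R26Foxf1; Tie2-cre lungs, against 10.57, 11.55 and 11.71 in the control lungs (−0.46, 95% interval −2.50 to 1.58, adjusted p = 0.777). Cox7a1 had 8.53, 10.31 and 10.05 in the R26Foxf1; Tie2-cre lungs, against 9.25, 10.48 and 10.35 in the control lungs (−0.40, adjusted p = 0.653), and Cox8b had 7.73, 10.21 and 10.17 in the R26Foxf1; Tie2-cre lungs, against 9.32, 10.29 and 10.02 in the control lungs (−0.51, adjusted p = 0.650). In all 3 genes the lowest lung was R26Foxf1; Tie2-cre replicate 1 and the next lowest was control replicate 1, and the other 4 lungs were close together. Cox4i2, an isoform of complex IV known from lung and smooth muscle, had 10.65, 10.93 and 11.02 in the R26Foxf1; Tie2-cre lungs, against 10.20, 10.33 and 10.54 in the control lungs (0.51, SE 0.14, 95% interval 0.19 to 0.83, adjusted p = 0.0754). The R26Foxf1; Tie2-cre lungs all lay above the control lungs, but the difference did not pass the threshold. Cox6b2 had an estimate of 0.24 (adjusted p = 0.286), and Ndufa4l2 had no tested probe.

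**Figure D4:**
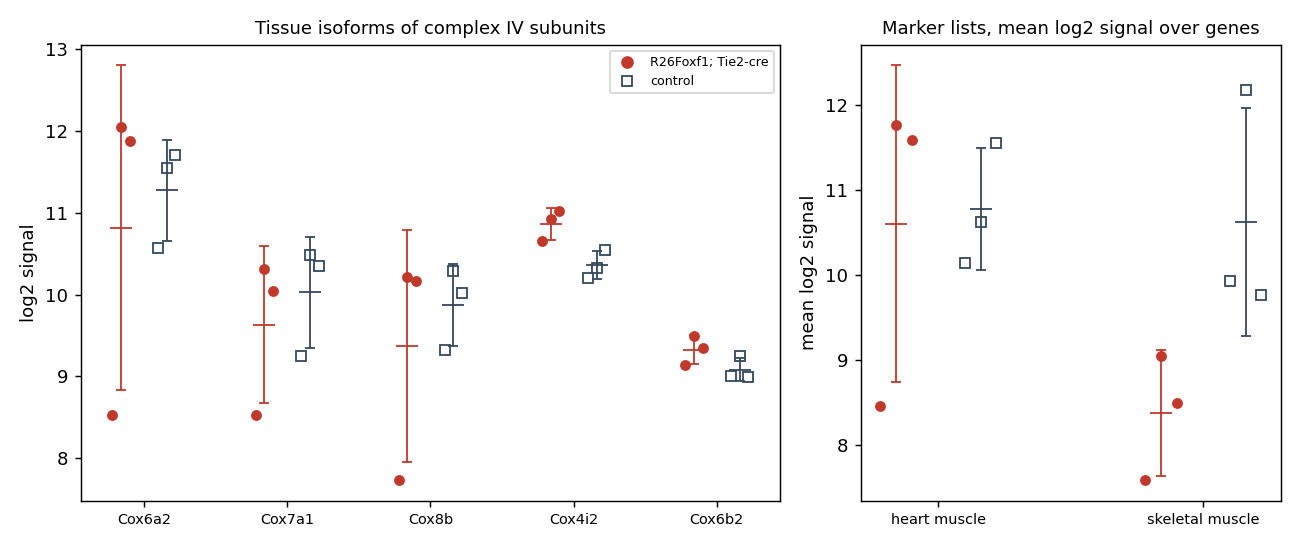
Log2 signal of each lung for the muscle isoforms Cox6a2, Cox7a1 and Cox8b, for Cox4i2 and Cox6b2, and for the mean of the heart and skeletal muscle markers, with R26Foxf1; Tie2-cre lungs left of control lungs and bars at the mean and SD. The muscle isoforms and the heart markers are lowest in R26Foxf1; Tie2-cre replicate 1 (8.53, 8.53 and 7.73 for the isoforms, 8.46 for the heart markers), and the skeletal muscle markers are lower in all R26Foxf1; Tie2-cre lungs.

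Markers of tissues next to the lung moved between the lungs in the same samples. The mean signal of 9 heart muscle markers, all of them tested and none called, was 8.46, 11.76 and 11.59 in the R26Foxf1; Tie2-cre lungs, against 10.14, 10.62 and 11.55 in the control lungs, and their summed signal was 12.73 to 16.15 in the R26Foxf1; Tie2-cre lungs and 14.34 to 15.93 in the control lungs on the log2 scale. Nppa, which encodes the atrial natriuretic peptide, had 4.62, 14.86 and 14.00 in the R26Foxf1; Tie2-cre lungs, against 10.90, 11.37 and 14.29 in the control lungs. The mean of 9 skeletal muscle markers was 7.59, 9.05 and 8.50 in the R26Foxf1; Tie2-cre lungs, against 9.93, 12.17 and 9.77 in the control lungs. At an unadjusted p under 0.05, 8 of 9 were lower (88.9%), beside 9.03% of all tested genes. Of the 9, 1 was called lower, Myog (−0.99, adjusted p = 0.0280), beside 1.44% of all tested genes. Myog was detected in 0 R26Foxf1; Tie2-cre lungs and 3 control lungs, so that it entered the test only through the controls. The summed signal of the 9 skeletal muscle markers was 11.38 to 13.54 in the R26Foxf1; Tie2-cre lungs, against 13.95 to 16.37 in the control lungs, without overlap. Both tissues are rich in mitochondria. Their part in the values of the subunits was not tested.

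Of 9 thymocyte and lymphocyte markers with a probe, 1 was tested. It was higher in the R26Foxf1; Tie2-cre lungs without overlap (0.32, SE 0.10) and was not called. Over all 9 the mean was 5.40, 5.37 and 5.38 in the R26Foxf1; Tie2-cre lungs, against 7.51, 8.42 and 5.42 in the control lungs. Control replicates 1 and 2 thus stood apart. Leaving both out, a setting added after the data were seen, left 1 control lung, which the fit assumes to vary like the R26Foxf1; Tie2-cre lungs, and Atp5pb then had an estimate of −0.76 (adjusted p = 0.0852). None of 19407 probes was called in that setting, so it bears on the size of the estimate and not on the call. Erythroid markers averaged 7.99, 7.91 and 7.95 in the R26Foxf1; Tie2-cre lungs, against 7.46, 7.30 and 7.55 in the control lungs, and their summed signal was 12.96 to 13.05 in the R26Foxf1; Tie2-cre lungs and 12.75 to 13.65 in the control lungs on the log2 scale, which overlap. The embryonic globin genes Hba-x (1.38), Hbb-y (1.25) and Hbb-bh1 (1.84) were called higher, beside 1.54% of all tested genes. Hbb-bh1 was detected in the 3 R26Foxf1; Tie2-cre lungs and in 0 control lungs and so tested only through the R26Foxf1; Tie2-cre lungs. The 2 other tested erythroid markers had negative estimates, Alas2 (−0.46, adjusted p = 0.327) and Slc4a1 (−0.17, adjusted p = 0.607). Brown fat markers averaged 4.97 to 5.08 in the R26Foxf1; Tie2-cre lungs, against 4.99 to 5.18 in the control lungs, and Ucp1, Plin1, Fabp4 and Elovl3 were not detected on any array. Liver markers averaged 6.54 to 7.80 in the R26Foxf1; Tie2-cre lungs, against 6.56 to 6.94 in the control lungs, with none of 4 tested called. The part of these cells in the values of the subunits was not tested.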

How the data were processed

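The authors deposited, for each of 45281 probes of an Illumina mouse WG-6 v2.0 BeadChip, a background-subtracted signal intensity (25.5% to 28.5% of values per lung below 0) with a detection p-value. The authors also deposited log2-like values after robust spline normalization and variance stabilization, used as an alternative. Each lung had 19831 to 20043 probes detected at p under 0.01. Intensities were normalized with neqc (R 4.3.3, limma 3.58.1; offset 16), 20118 probes were tested with lmFit and eBayes over 3 lungs per group, and p-values were Benjamini-Hochberg adjusted over them. The thresholds are those of the study's methods, whose t-test was an alternative. The paper calls the controls littermates, but neither it nor the labels say which lungs share a litter or chip. The p-values therefore measure the spread between these lungs, and same-numbered lungs were not treated as pairs. Their deviations from the group means had correlations of 0.293, −0.0355 and −0.0269. With 3 lungs per group these cannot show whether lungs share a litter or chip. Of 34885 probes with 1 symbol, 34807 were updated by gene ID; 18 had several symbols and 10378 none. The subunits and the lists were chosen with earlier results of these data known. Per-lung values are given for the members with the smallest p and the largest change in each complex, and for those whose probes disagreed. Other members were added after their values were seen. Scripts were tested on simulated data.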

Additional observations from a re-analysis of the deposited data

How the results depend on the processing

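Atp5pb remained the only called subunit under median scaling (adjusted p = 0.0490), cyclic loess (0.0424), detection on all 6 arrays (0.0351) and with no fold limit. The count called lower was 3 (Ndufs4, Sdhb and Atp5pb) with no background correction, on the deposited values, with a variance trend and robust moderation, at an adjusted p under 0.1, and at unadjusted p values with the 1.2-fold limit kept, where 1 was also called higher (Ndufb10), and 2 (Sdhb and Atp5pb) with array weights. It was 0 with no filter on dim probes (Atp5pb adjusted p = 0.0722), with detection p under 0.05 on at least 1 array (0.0619), by the methods' t-test (0.133) and that test on the deposited values (0.130), which called 0 of 20118 probes, and over the mean of a gene's probes (0.280). It was also 0 without control replicates 1 and 2 together, where 1 control lung remained, assumed to vary like the other group, and 0 of 19407 probes were called. With a replicate block it was 0 (0.0926), and 46 probes were called on the array, against 908. Leaving out each lung gave 0 to 1 called lower, with 0 to 1669 probes called on the array. The cause of these differences was not tested. The median of complex V, 0.03, was −0.029 under median scaling, −0.054 under cyclic loess, −0.026 against control replicate 3 alone, and −0.022 to 0.026 with 1 lung left out. That of complex III was 0.14 with no filter and with detection p under 0.05 on at least 1 array, where a further gene was included, 0.015 with array weights, and −0.075 to 0.015 with 1 lung left out. That of complex IV was −0.13 under cyclic loess and over the mean of a gene's probes, and −0.15 to −0.051 with 1 lung left out (−0.15 without control replicate 1). That of complex I was 0.0028 with array weights and −0.072 to −0.0072 with 1 lung left out. That of complex II was −0.18 against control replicate 3 alone and −0.13 to −0.031 with 1 lung left out. Atp5b was −0.081 under median scaling and −0.070 under cyclic loess, and Atp5o was −0.046, −0.059 and, over the mean of its probes, −0.18, with −0.025 to 0.038 when 1 lung was left out. Of the probes called, 53.7% were higher, against 39.3% under cyclic loess and 28.3% with the replicate block. Over all subunits the median deviation of control replicate 1 (−0.05) lay among those of the R26Foxf1; Tie2-cre lungs. It was below all of them in complexes I and V and above all of them in complex II. At Atp5pb (11.80) and Sdhb (11.03) this control lung also read above each R26Foxf1; Tie2-cre lung. Its part in the calls was not tested. The 3 lungs per group limit what can be called.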

Other observations

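Other mitochondrial and housekeeping lists showed no call by limma, beside 1.44% of all tested genes called lower and 1.54% called higher. At an unadjusted p under 0.05, 9.03% of all tested genes were lower and 13% higher. Of 23 genes of mitochondrial protein import, 20 were tested, with a median log2 fold change of −0.01. At that limit 0 were higher and 1 was lower (5%), Tomm7, a small subunit of the outer membrane translocase (−0.39). Of 13 carriers, channels and uncoupling proteins, 7 were tested, with a median of −0.09. At that limit 0 were higher and 1 was lower (14.3%), Vdac3, a channel of the outer membrane (−0.35). Of 57 genes of the cytosolic ribosome, 36 were tested, with a median of −0.01 and 0 at an unadjusted p under 0.05. All 36 had a 95% interval within 1.5-fold of no change, beside 91.9% of tested genes with a mean log2 signal of 12 or more.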
